A study of Mus musculus with 4 samples.

Results

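The 44 genes described here encode proteins that copy DNA in S phase, from origin licensing and helicase loading to polymerases, the sliding clamp, nucleotide supply, the replication checkpoint and chromatin assembly on new DNA. They were chosen by symbol, as known parts of this machinery, but with earlier results of these data known. Each was found by its Ensembl identifier among the 52550 gene entries of the count files. The RNA came from macrophages that had been grown from the bone marrow of C57BL/6 mice aged 8 to 10 weeks. One pair of libraries came from wild-type mice and the other from mice with a deficiency of the microRNA miR-7. Within each genotype, 1 library came from unstimulated cells and 1 from cells given lipopolysaccharide (LPS), a bacterial membrane lipid sensed by Toll-like receptor 4, at 100 ng/mL over 12 hours. So there were 4 groups of 1 library, and all shared strain, age range and cell type. How the deficiency was made, whether it was limited to some cells, how many mice gave marrow and their sex are not stated in the labels or series text. All 44 genes passed the filter on low counts, a CPM (counts scaled to library size, and by TMM to library composition) of at least 1 in at least 2 libraries, as did 12730 genes in all.

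Replication begins when the origin recognition complex, Cdc6 and Cdt1 load the MCM2-7 ring on DNA, and it starts once Cdc45 and the GINS complex turn that ring into a working helicase. Primase and polymerase alpha lay primers, polymerases epsilon and delta extend them on the PCNA clamp, and ribonucleotide reductase and its partners supply the deoxynucleotides. Many of these genes are known targets of E2F factors, which are held off by pocket proteins in resting cells. Bone marrow progenitors divide in culture under macrophage growth factor, and macrophages activated by LPS are known to slow or stop dividing.

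The libraries held 33937823 to 42074624 gene counts. All 7 macrophage markers checked (Adgre1, Csf1r, Cd68, Itgam, Mertk, Lyz2 and Fcgr1) were detected in every library, with a summed level of 12490 to 22640 CPM. Most of each sum was Lyz2, at 8664 to 18590 CPM. In the unstimulated pair, Itgam stood at 965 CPM in wild-type against 291 in deficient cells, and Fcgr1 at 52.65 against 23.76. Adgre1 and Mertk were also lower in deficient cells there, whereas Csf1r, Cd68 and Lyz2 were higher. The neutrophil genes Ly6g and Elane, the dendritic cell gene Flt3 and the T cell gene Trac had 0 counts throughout. Other markers of such cells were present and differed between libraries. The 4 dendritic cell markers summed to 5.62, 155, 7.16 and 324 CPM. In the LPS libraries nearly all of it was Ccr7, a chemokine receptor that activated macrophages can also express. In the wild-type and deficient unstimulated libraries Ccr7 was at 4.40 and 4.08 CPM, and the dendritic cell gene Zbtb46 at 1.22 and 3.08 CPM. The 6 neutrophil markers summed to 4.57, 9.29, 4.54 and 10.5 CPM, most of it S100a8, at 4.57, 8.69, 4.41 and 8.73 CPM. The 4 T cell markers summed to 0.556, 1.36, 1.05 and 4.17 CPM and the 4 mast cell markers to 1.15, 7.36, 0.153 and 0.641 CPM. B cell, fibroblast and erythroid markers summed to at most 2.38 CPM in any library. The progenitor genes Kit and Cd34 summed to 10.0, 5.40, 13.9 and 3.07 CPM, in the order wild-type unstimulated, wild-type LPS, deficient unstimulated and deficient LPS, which every series of 4 values below follows. Of 5 genes that LPS is known to induce (Tnf, Il6, Il1b, Nos2 and Rsad2), the summed level was 309, 23770, 95.8 and 16330 CPM. The wild-type unstimulated library was the higher of the unstimulated pair in that sum, with Nos2 at 93.0 against 3.77 CPM and Il1b at 73.1 against 13 CPM.

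Because these genes are known as E2F targets, their promoters were searched for 4 words that E2F factors bind, TTTCCCGC, TTTGGCGC, TTTCGCGC and TTTGCCGC, on both strands of the 300 bases (250 before the start and 50 after) that RefSeq's promoter table gives on GRCm38.p6. The table held 36 of the 44 genes, all but Rfc2, Prim2, Mcm4, Gmnn, Pole, Gins1, Gins4 and Gins2. At least 1 word stood in a promoter of 15 of the 36 genes (41.7%), beside 4.8% of the 9385 tested genes in the table. That set was Cdc6, Cdt1, Clspn, Gins3, Lig1, Mcm3, Mcm5, Mcm6, Mcm7, Orc1, Pola1, Pold1, Pole2, Rfc3 and Uhrf1. Counted by promoter it was 15 of 42 (35.7%), where 2.3% of all 32851 promoters in the table held a word. A CCAAT box, spelled CCAAT, stood in 22 of the 36 genes (61.1%), beside 42.9% of the tested genes and 37.4% of all promoters. The word TTTGAA, part of the CHR element of mitotic genes, stood in 5 of the 36 (13.9%), beside 14.8% of the tested genes and 17.9% of all promoters. A word is a match of letters and does not show that a factor was bound in these cells.

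Stretches of 100 bases are shown for 4 genes, each ending before the RefSeq start, free of exons in the GENCODE M21 annotation and read 5′ to 3′ on the gene's own strand, with the E2F words in capitals. Cdc6 and Uhrf1 had the largest falls with LPS among genes with a word before the start and outside annotated exons, whereas the word of Clspn lay after the start. Mcm5 and Mcm6 were added after their values were seen, since their words overlap on the 2 strands and since they differed in their LPS values. The stretches lie at chr11:98907982-98908081 on the plus strand for Cdc6, chr17:56304082-56304181 on the plus strand for Uhrf1, chr8:75109312-75109411 on the plus strand for Mcm5 and chr1:128359731-128359830 on the minus strand for Mcm6.
Cdc6: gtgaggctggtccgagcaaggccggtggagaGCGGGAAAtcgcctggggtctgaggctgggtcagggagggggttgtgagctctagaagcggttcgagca
Uhrf1: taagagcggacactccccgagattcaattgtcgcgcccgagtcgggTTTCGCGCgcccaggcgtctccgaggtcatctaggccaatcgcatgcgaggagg
Mcm5: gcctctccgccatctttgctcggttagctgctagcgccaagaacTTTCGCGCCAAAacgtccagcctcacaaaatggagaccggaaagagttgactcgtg
Mcm6: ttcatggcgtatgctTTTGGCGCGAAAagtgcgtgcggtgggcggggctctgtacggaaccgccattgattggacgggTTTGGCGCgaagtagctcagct

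The first comparison asked how LPS moved the replication genes in macrophages of both genotypes. With LPS, 29 of the 44 fell, 0 rose and 15 did not pass the test (edgeR's quasi-likelihood test in an additive model of genotype and LPS, Benjamini-Hochberg adjusted p under 0.05), where 16.3% of all genes tested fell and 18.0% rose. At an unadjusted p under 0.05, 32 were lower and 0 higher, and DESeq2's Wald test called the same 29 lower and 0 higher. The model treats the wild-type and deficient pairs as replicates, so its p-values measure how alike the 2 pairs are and not a spread among mice. The median fitted log2 change of the 44 was -1.32 (quartiles -2.29 and -0.82), beside -0.04 over all genes tested. In 35 of the 44, both LPS libraries lay below both unstimulated ones, as did 37.2% of all genes. Only Pola2 and Tyms had both LPS libraries above, where 33.7% of all genes did, and the other 7, Mcm6, Gins2, Gins3, Gins4, Pold2, Rfc3 and Tk1, overlapped. The summed level of the 44 genes was 1390, 548, 1007 and 524 CPM. In bulk RNA, fewer cells in S phase and less RNA of these genes per cell cannot be told apart. The progenitor genes Kit and Cd34 were also lower in both LPS libraries. The summed dendritic cell markers, mostly Ccr7, and neutrophil markers, mostly S100a8, were higher in both. The T cell and mast cell sums were higher with LPS within each genotype. The part of these markers in the values of the 44 was not tested.

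**Figure D1:**
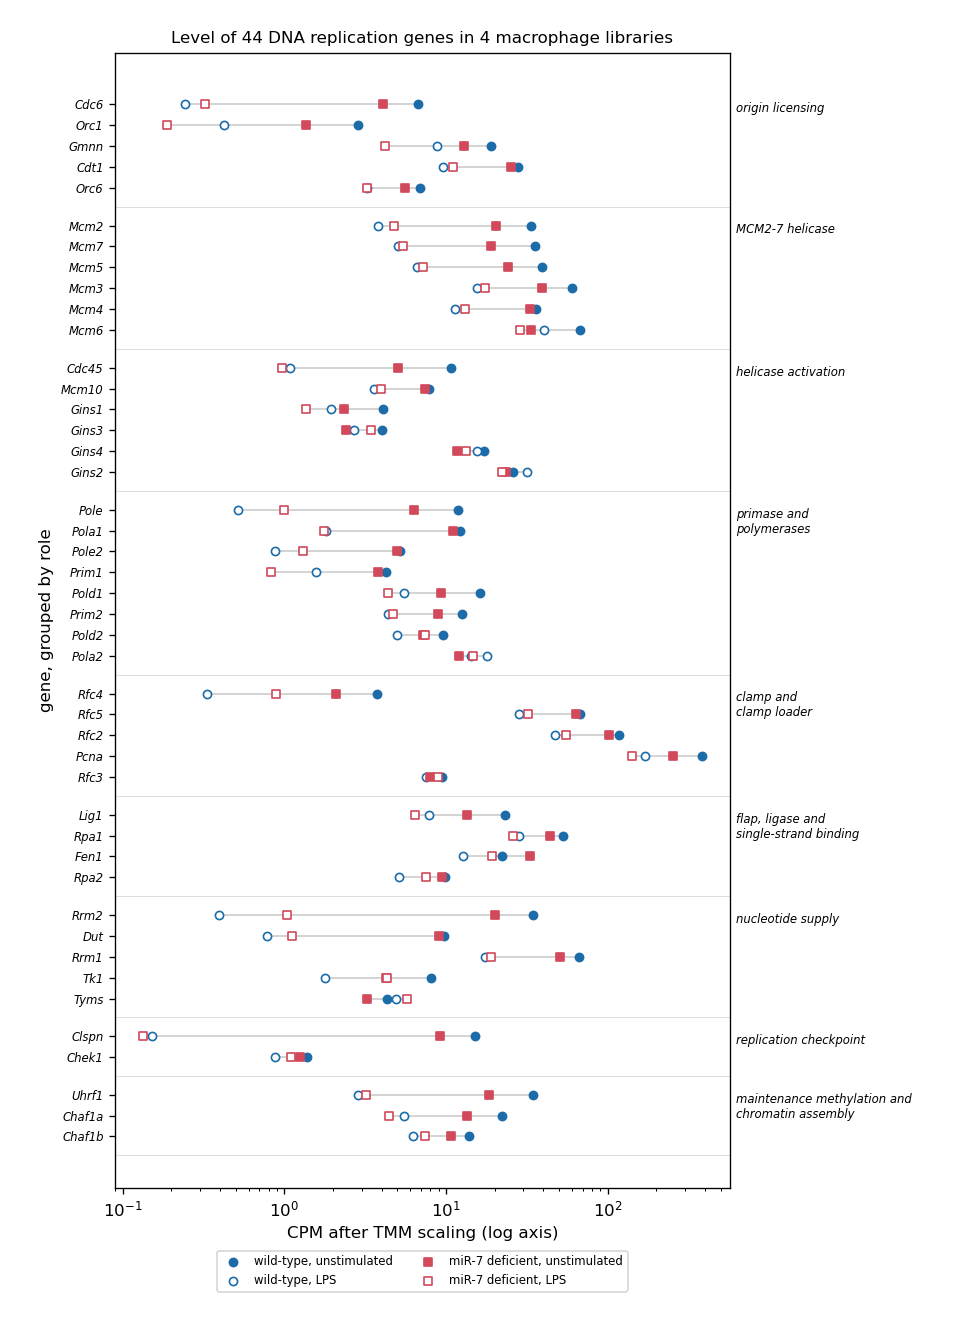
Level of each of the 44 replication genes (CPM after TMM scaling, log axis) in the 4 libraries, with genes grouped by role and ordered within a role by their fitted LPS change. Filled symbols are unstimulated and open symbols LPS libraries, circles wild-type and squares miR-7 deficient, and each symbol is 1 library. In 35 of 44 genes both open symbols lie left of both filled ones.

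The size of the fall depended on single libraries. In a model of LPS alone with all 4 libraries, 27 of the 44 fell, where 1835 of all 12730 genes fell and 2090 rose. The median log2 change of the 44 was then -1.33. It was -0.97 without the wild-type unstimulated library and -1.33 without the wild-type LPS library. It was -1.50 without the deficient unstimulated library and -1.26 without the deficient LPS library. Calls of a fall were fewer in each of these 4 fits, both among the 44 and among all genes tested. In these fits the lone sample of an arm was assumed to vary like the other arm, and all the replication genes called fell. With all 4 libraries and in each of these 4 fits, the same 11 genes fell: Cdc6, Mcm2, Mcm4, Mcm5, Pola1, Pole, Rrm1, Rrm2, Dut, Clspn and Uhrf1. The other genes that fell lost the call in at least 1 of them. Of these, Fen1, Gmnn and Rfc4 had already lost it in the model of LPS alone with all 4 libraries. Without the filter on low counts, Fen1, Prim2 and Rfc4 lost it too. Of the 44, 15 share exonic bases with another annotated gene (Orc1, Orc6, Mcm7, Cdc45, Gins2, Pole, Pole2, Rfc2, Rfc4, Rfc5, Fen1, Lig1, Rpa1, Tk1 and Chaf1a), so their counts could hold reads of a neighbour. Among the 29 that share none, 17 fell and 0 rose. Scaling by total counts shifted the median of all genes to log2 -0.46 in the wild-type pair and -0.43 in the deficient pair, from -0.02 and -0.06 with TMM. With that scaling 1550 of all genes rose and 3840 fell, in place of 2297 and 2075, and of the 44 genes 34 fell and 0 rose.

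Of the 5 origin licensing genes 4 fell, with a median log2 change of -1.37, near that of all 44. Cdc6, the ATPase that joins the origin complex to load the MCM ring, stood at 6.75, 0.241, 4.08 and 0.320 CPM. Both LPS libraries were far below both unstimulated ones, on only 8 and 12 counts. The fitted change was log2 -4.20 ± 0.53 (SE), adjusted p 0.00207, in edgeR's test. Cdc6 holds a single E2F word in the stretch shown above. Orc1, the largest subunit of the origin recognition complex and one whose level is known to follow the cell cycle, stood at 2.86, 0.422, 1.35 and 0.187 CPM and fell. Cdt1, the loading partner of Cdc6, stood at 27.8, 9.53, 25.1 and 11.1 CPM and fell. Its inhibitor geminin, encoded by Gmnn, fell as well, at 19.1, 8.75, 12.9 and 4.22 CPM (log2 -1.37 ± 0.26, adjusted p 0.00979 by edgeR). The licensing factor and its inhibitor thus moved in the same direction, although each call was lost in at least 1 fit that left out a library. That of Gmnn was already lost in the model of LPS alone with all 4 libraries. In the fits that left out a library the change of Gmnn ran from log2 -1.92 to -0.87. Orc6, another origin complex subunit, stood at 6.93, 3.26, 5.61 and 3.26 CPM and did not pass (log2 -0.94 ± 0.34, adjusted p 0.0822 by edgeR), although both LPS libraries were the lower ones.

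Of the 6 subunits of the MCM2-7 helicase, 5 fell and Mcm6 did not pass, with a median log2 change of -1.87. Mcm2 had the largest fitted change of the ring, at 33.5, 3.77, 20.4 and 4.75 CPM (log2 -2.62 ± 0.32, adjusted p 0.00191 by edgeR). Mcm7 stood at 35.3, 5.07, 19.1 and 5.42 CPM, and Mcm5 at 39.4, 6.61, 24.3 and 7.18 CPM. In all 3, the LPS libraries of both genotypes reached nearly the same low level from unstimulated levels that differed. Mcm3 stood at 60.3, 15.6, 39.4 and 17.4 CPM, and Mcm4 at 36.1, 11.4, 33.2 and 13.1 CPM. These too had no overlap between LPS and unstimulated libraries. Mcm6 stood apart at 67.6, 40.5, 33.8 and 28.8 CPM, with the wild-type LPS library above the deficient unstimulated one. Its fitted change was log2 -0.49 ± 0.22, adjusted p 0.145 by edgeR, and it turned to 0.092 without the wild-type unstimulated library. Mcm5 and Mcm6 both carry overlapping E2F words on the 2 strands in the stretches above. Since the ring holds 1 copy of each subunit, levels per kilobase of exon are of interest. In unstimulated wild-type cells Mcm3 had 16.1 and Mcm6 14.5 CPM per kb, the highest of the 44 genes after Pcna and Rfc2.

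Genes for turning the loaded ring into a helicase behaved otherwise, with 1 of 6 past the test and a median log2 change of -0.49. The 1 that fell was Cdc45, the helicase cofactor, at 10.7, 1.09, 5.02 and 0.961 CPM (log2 -2.84 ± 0.42, adjusted p 0.00377 by edgeR). That call was lost without the wild-type unstimulated library (adjusted p 0.062), without the wild-type LPS library (0.0581) and without the deficient LPS library (0.0559). Mcm10, which helps the helicase to start, stood at 7.82, 3.56, 7.42 and 3.95 CPM and just missed the threshold (adjusted p 0.0521 by edgeR). The 4 subunits of GINS did not pass. Gins1 stood at 4.08, 1.93, 2.35 and 1.36 CPM, with both LPS libraries the lower ones. Gins2 stood at 26.1, 31.7, 23.4 and 22.2 CPM, and Gins4 at 17.1, 15.6, 11.7 and 13.3 CPM, and in both the LPS and unstimulated libraries overlapped. Their fitted log2 changes were 0.10 ± 0.21 (adjusted p 0.738) and 0.02 ± 0.23 (adjusted p 0.951) by edgeR, and both turned negative with total counts (-0.30 and -0.39). Gins3 stood at 4.04, 2.68, 2.42 and 3.44 CPM, so that LPS went with a lower value in wild-type and a higher one in deficient cells. Cdc45 and GINS subunits work in 1 complex, and their fitted values spanned from -2.84 to 0.10.

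Among primase and polymerase subunits, 6 of 8 fell. Pola1, the catalytic subunit of polymerase alpha, stood at 12.1, 1.81, 11 and 1.76 CPM and fell. Its accessory subunit Pola2 stood at 14.3, 18.0, 12.1 and 14.6 CPM, with both LPS libraries above both unstimulated ones (log2 0.31 ± 0.22, adjusted p 0.327 by edgeR, and -0.10 with total counts). The subunits of 1 enzyme thus gave values of opposite sign under TMM scaling. The primase genes both fell, Prim1, the catalytic subunit, at 4.25, 1.57, 3.80 and 0.828 CPM (log2 -1.81 ± 0.45, adjusted p 0.0249 by edgeR) and Prim2 at 12.6, 4.37, 8.87 and 4.70 CPM. Each of these calls was lost in at least 1 fit that left out a library. Pole, the catalytic subunit of the leading-strand polymerase epsilon, had the largest fall of this group, at 11.8, 0.513, 6.32 and 0.988 CPM (log2 -3.55 ± 0.55, adjusted p 0.0045 by edgeR). Its LPS values rest on 17 and 37 counts. Pole2, which binds it, stood at 5.22, 0.875, 4.97 and 1.31 CPM and fell. Pold1, the catalytic subunit of the lagging-strand polymerase delta, fell to a smaller degree, at 16.2, 5.49, 9.33 and 4.38 CPM. Its partner Pold2 did not pass, at 9.60, 4.95, 7.19 and 7.37 CPM, and only its wild-type LPS library was low.

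Of the 5 genes for the sliding clamp and its loader, 4 fell. Pcna, the clamp that tethers the polymerases, reached 159 CPM per kb in unstimulated wild-type cells, the highest level per length of the 44, followed by the loader subunit Rfc2 at 18.7 CPM per kb. Pcna fell by 1.0 on the log2 scale, at 382, 171, 255 and 142 CPM. Its processed pseudogene Pcna-ps2 had 160, 73, 112 and 70 counts, which could be reads of Pcna itself. The loader subunits Rfc2, at 118, 47.0, 102 and 55.5 CPM, and Rfc5, at 67.0, 28.3, 64.1 and 32.4 CPM, fell by similar fitted amounts, 1.10 and 1.11 on the log2 scale. In both, the LPS libraries were below both unstimulated ones. Rfc4 had far fewer counts, at 3.72, 0.332, 2.09 and 0.881 CPM (log2 -2.29 ± 0.69, adjusted p 0.0458 by edgeR). That call was lost with DESeq2 size factors (adjusted p 0.0609). It was also lost in the model of LPS alone with all 4 libraries. In that model the log2 change of Rfc4 was -1.72 without the wild-type unstimulated library and -1.72 without the wild-type LPS library. It was -2.60 without the deficient unstimulated library and -3.12 without the deficient LPS library. Rfc3 did not pass, at 9.38, 7.51, 7.95 and 8.92 CPM (log2 -0.08 ± 0.29, adjusted p 0.855 by edgeR), and its LPS and unstimulated libraries overlapped. The 4 subunits measured here belong to the same clamp loader.

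Of the 4 genes for joining fragments and coating single strands, 3 fell. Lig1, the ligase that seals Okazaki fragments, stood at 23.1, 7.84, 13.4 and 6.46 CPM (log2 -1.31 ± 0.25, adjusted p 0.0103 by edgeR). That call was lost without the wild-type unstimulated library (adjusted p 0.171), the wild-type LPS library (0.0946) or the deficient LPS library (0.122). Fen1, the flap nuclease that trims the fragments, stood at 22.3, 12.8, 33.1 and 19.4 CPM and fell. It was the 1 gene of the 44 with the higher unstimulated level in deficient cells. Rpa1, the large subunit of the single-strand binding protein, fell at 53.4, 28.4, 44 and 26.1 CPM. Rpa2, its partner, stood at 9.81, 5.13, 9.41 and 7.5 CPM and did not pass (log2 -0.63 ± 0.30, adjusted p 0.162 by edgeR).

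Of the 5 nucleotide supply genes 3 fell, and their fitted values ranged from the second largest fall of the 44 to the highest positive value. Rrm2, the small subunit of ribonucleotide reductase and the one known to be made in S phase, was at 34.7, 0.392, 20.1 and 1.04 CPM, on 1624, 13, 789 and 39 counts (log2 -5.23 ± 0.55, adjusted p 0.00107 by edgeR). It lies on chromosome 12 at 24708241 to 24714146 (GRCm38). Rrm1, the large subunit, had 66.2, 17.4, 51.0 and 19.0 CPM and fell to a lesser degree than Rrm2, by 1.68 against 5.23 on the log2 scale. Rrm2b, a gene outside the 44 for the alternative small subunit that is known from resting cells, had 10.8, 8.75, 14.4 and 11.1 CPM and did not pass (log2 -0.34 ± 0.24, adjusted p 0.32 by edgeR). It was named after its values were seen. Per length, Rrm2 had 12.5 and 7.26 CPM per kb in the unstimulated libraries against 1.18 and 1.57 for Rrm2b, and with LPS 0.142 and 0.376 against 0.957 and 1.22. Rrm2 was thus the higher of the small subunits without LPS and Rrm2b with it, in both genotypes. Dut, which removes dUTP, stood at 9.73, 0.784, 9.05 and 1.12 CPM and fell. Tyms, which makes dTMP, stood at 4.30, 4.89, 3.24 and 5.74 CPM, with both LPS libraries the higher ones, and did not pass (log2 0.50 ± 0.37, adjusted p 0.333 by edgeR). Among the 44 it alone kept a positive fitted value with total counts. Tk1, the thymidine kinase of S phase, stood at 8.04, 1.78, 4.28 and 4.33 CPM, low only in the wild-type LPS library, and did not pass (log2 -1.06 ± 0.59, adjusted p 0.214 by edgeR).

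The replication checkpoint genes differed in abundance and in change. Clspn encodes claspin, the adaptor that lets ATR activate Chk1. It had 708, 5, 358 and 5 counts, or 15.1, 0.151, 9.13 and 0.134 CPM, the largest fitted fall of the 44 (log2 -6.35 ± 0.44, adjusted p 0.000287 by edgeR). The gene lies on chromosome 4 at 126556935 to 126593903 (GRCm38). Chek1, which encodes Chk1 itself, was the lowest of the 44 per length, at 0.300 CPM per kb in unstimulated wild-type cells. It had 1.39, 0.875, 1.25 and 1.10 CPM and did not pass (log2 -0.43 ± 0.52, adjusted p 0.568 by edgeR). With 29 to 65 counts per library, a change of moderate size in Chek1 was hard to detect.

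Chromatin genes that follow the fork fell in 2 of 3 cases. Uhrf1, which reads hemimethylated DNA and brings in the maintenance methyltransferase, stood at 34.7, 2.84, 18.4 and 3.18 CPM (log2 -3.07 ± 0.33, adjusted p 0.00124 by edgeR). Its E2F word is in the stretch shown above. Chaf1a, the large subunit of the histone chaperone CAF-1, stood at 22.2, 5.52, 13.4 and 4.43 CPM and fell. Chaf1b, another CAF-1 subunit, stood at 13.9, 6.27, 10.8 and 7.37 CPM and missed the threshold (log2 -0.85 ± 0.28, adjusted p 0.0622 by edgeR), with both LPS libraries the lower ones.

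Set against the promoter search, 12 of the 24 genes that fell and were in the table held an E2F word of 8 letters, as did 3 of the 12 others in it, Gins3, Mcm6 and Rfc3. Rrm2, with the second largest fall, held none. With words of 7 letters, the same 4 less their first T, Rrm2 was among 24 of the 36 genes with a match (66.7%), beside 19.4% of the tested genes and 9.6% of all promoters.

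Each genotype was then read on its own, where 1 library stands against 1 and no replicate check exists. In the wild-type pair, 26 of the 44 genes were lower with LPS by more than 2-fold over their whole 95% interval for counting error, and 0 were higher by that much, where 13.3% of all genes tested were lower and 14.8% higher. In the deficient pair the counts were 20 and 0, where 11.8% of all genes were lower and 12.5% higher. The median of the 44 was 2.89-fold lower in wild-type and 2.10-fold lower in deficient cells. The ratio was below 1 in 41 of the 44 genes in wild-type and in 37 in deficient cells.

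**Figure D2:**
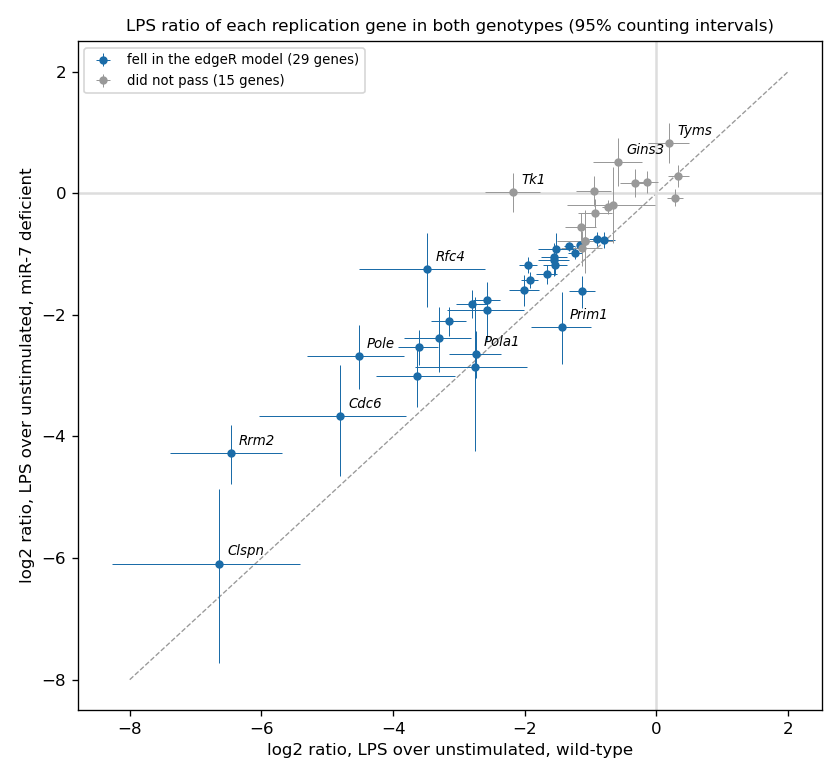
Log2 ratio of LPS over unstimulated for each of the 44 replication genes in wild-type (horizontal) and miR-7 deficient cells (vertical), with exact 95% intervals for counting error and the line of equal ratios dashed. Most points lie below 0 on both axes and above the dashed line, Clspn and Rrm2 lie lowest, and Tk1, Rfc4 and Rrm2 lie farthest above the line with an interval beyond 2-fold.

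**Figure D3:**
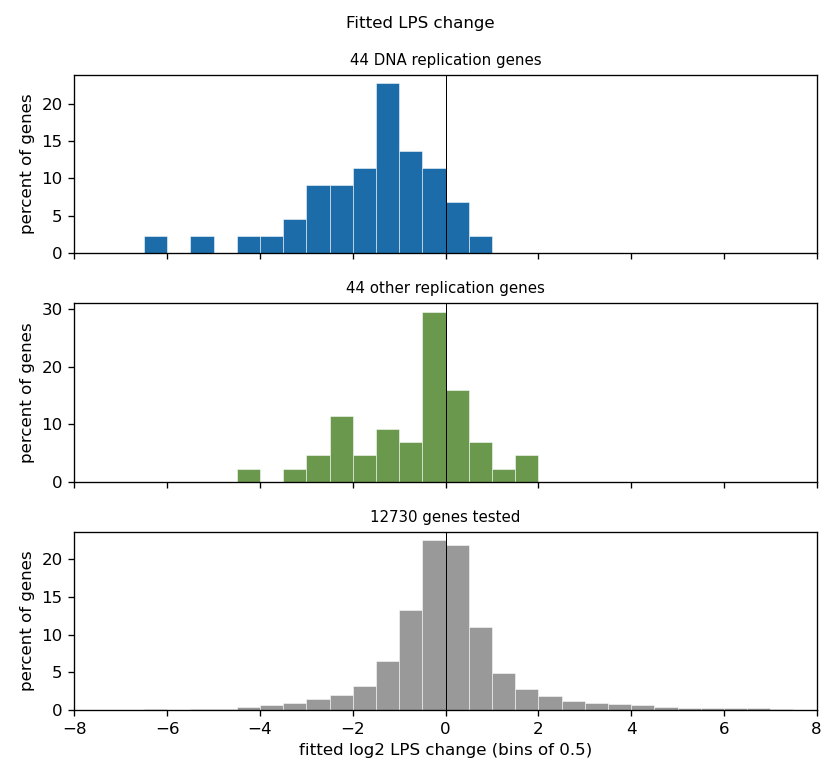
Distribution of fitted log2 LPS changes (bins of 0.5, percent of genes in each) for the 44 replication genes, 44 other replication genes and all 12730 genes tested. The median is -1.32 for the first, -0.26 for the second and -0.04 for all genes tested, and the tail below -4 of the first holds Clspn, Rrm2 and Cdc6.

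The second comparison asked whether the genes differed between miR-7 deficient and wild-type cells. In the additive model, 0 of the 44 were called for genotype, where 0.165% of all genes tested were called lower in deficient cells and 0.385% higher. The smallest of their adjusted p-values was 0.417 (edgeR), for Mcm6. At an unadjusted p under 0.05 the same test had Gmnn and Mcm6 lower and Fen1 higher, and DESeq2's Wald test called 0 as well, with Gmnn, Mcm6 and Pcna lower at an unadjusted p under 0.05. Anything else by which the wild-type and deficient mice differed would count as genotype in it. In the unstimulated pair, 43 of the 44 ratios of deficient over wild-type were below 1 and 1 above, where 50.0% and 49.7% of all genes tested were. The interval lay below 1 in 35 and above 1 in 1, where 30.7% and 31.9% of all genes did. The median of the 44 was 1.44-fold lower in deficient cells, beside a log2 median near 0 over all genes. These values compare 1 library with 1, whose lower level in the deficient one could hold for the mouse, the culture or the library as well as for the genotype, and these cannot be told apart.

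None of those unstimulated differences exceeded 2-fold over the whole interval, where 1.41% of all genes were lower by that much and 2.82% higher. The largest was that of Cdc45, the helicase cofactor, at log2 -1.09 (95% interval -1.34 to -0.85). Mcm6 followed among well counted genes, at -1.0 (-1.09 to -0.91) on 3164 and 1325 counts. Uhrf1 was at -0.91 (-1.04 to -0.79) and Pole at -0.90 (-1.12 to -0.68). Of these, Cdc45 and Mcm6 belong to the same helicase. Rpa2 lay nearest to equal levels, at -0.06 (-0.26 to 0.14), and Pole2, which binds Pole, was at -0.07 (-0.35 to 0.21). Dut was at -0.10 (-0.31 to 0.10). Pola1 was at -0.14 (-0.32 to 0.04), and its accessory subunit Pola2 at -0.24 (-0.41 to -0.07). Fen1 was the exception in sign, at 0.57 (0.46 to 0.69), and it was also higher in deficient cells with LPS, at 0.60 (0.42 to 0.77). Fen1 shares exonic bases with another gene. In the same unstimulated pair the LPS-induced genes named above were higher in wild-type, apart from Tnf at 19.8 against 42.4 CPM. Their part in these ratios was not tested.

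In the LPS pair the lean to lower values in deficient cells was not present. There 16 of the 44 ratios were below 1 and 28 above, where 47.8% and 52.0% of all genes were. The interval lay below 1 in 10 and above 1 in 12, where 31.6% and 34.8% of all genes did. The median log2 ratio was 0.15, and 0 genes exceeded 2-fold in either direction, where 3.04% of all genes were lower and 2.58% higher. Gmnn, the Cdt1 inhibitor, was lower in deficient cells with LPS, at log2 -1.05 (-1.34 to -0.77), and Rfc4, Rrm2 and Tk1 were the highest, at 1.41 (0.39 to 2.54), 1.41 (0.47 to 2.44) and 1.28 (0.84 to 1.74). For 9 genes, Cdt1, Mcm4, Pold2, Pole, Rfc2, Rfc3, Rfc4, Rrm2 and Tk1, the interval lay below 1 without LPS and above 1 with it, where 9.91% of all genes did so.

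**Figure D4:**
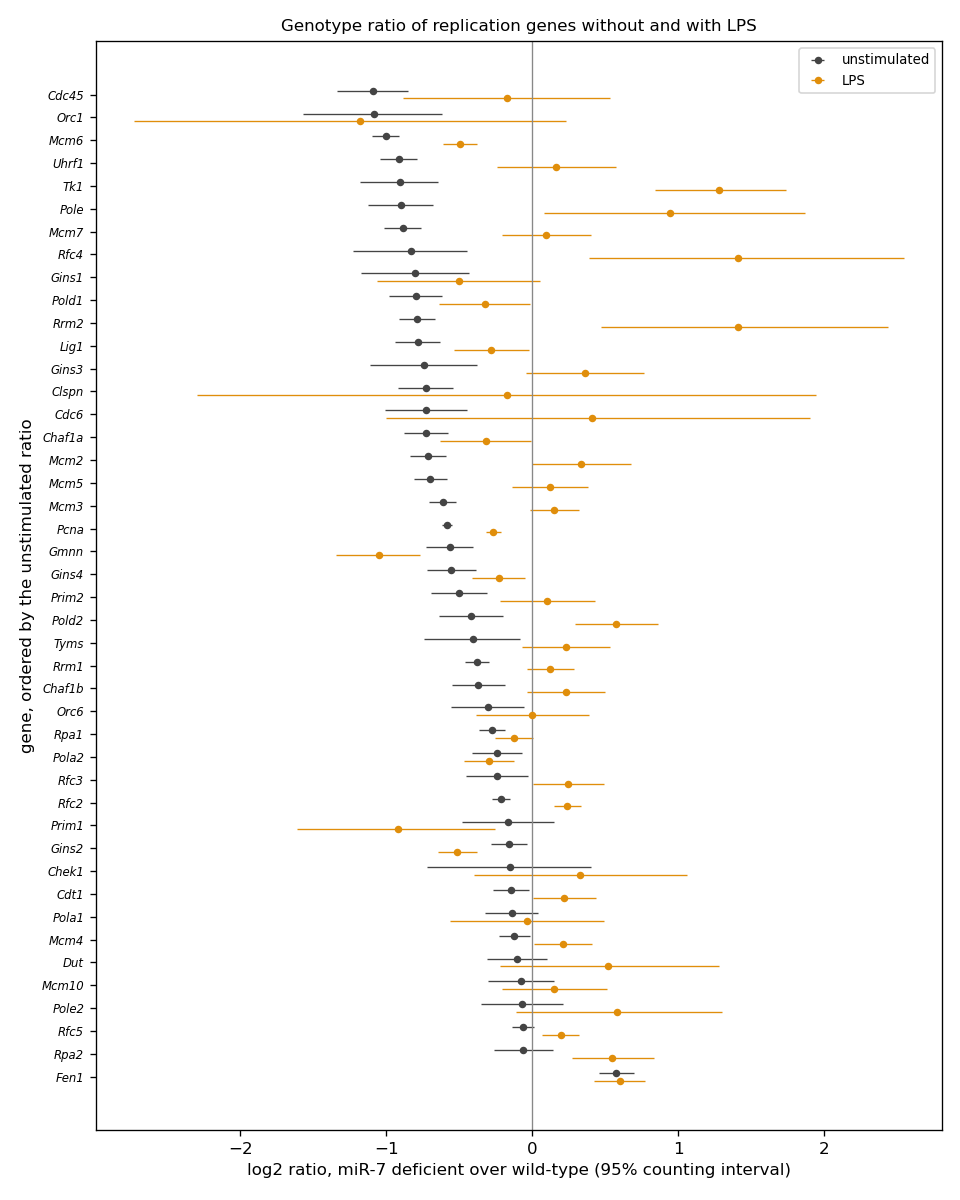
Log2 ratio of miR-7 deficient over wild-type for each of the 44 replication genes, unstimulated (grey) and with LPS (orange), with exact 95% intervals for counting error and genes ordered by the unstimulated ratio. Unstimulated, all points but that of Fen1 lie below 0, and with LPS 16 lie below 0 and 28 above.

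The LPS ratio in deficient cells was then divided by that in wild-type cells. This quantity was above 1, a smaller reduction or a larger gain in deficient cells, in 39 of the 44 genes and below 1 in 5, where 49.8% of all genes tested were above and 50.2% below. The median was 1.42-fold. Its 95% interval lay above 1 in 28 genes, where 31.5% of all genes did, and below 1 in 3, where 33.0% did. It uses the same 4 libraries as the genotype ratios, so it is no separate evidence, and with 1 library per group no test of the difference exists. Beyond 2-fold over the whole interval it was higher in 3 genes, where 2.26% of all genes were, and lower in 0, where 3.82% were.

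Those 3 were Rfc4 at log2 2.19 (1.16 to 3.23), Tk1 at 2.18 (1.68 to 2.68) and Rrm2 at 2.16 (1.26 to 3.06). Tk1 was the best counted in the LPS libraries, with 59 counts in wild-type and 162 in deficient cells. It was 4.52-fold lower with LPS in wild-type cells, and in deficient cells its LPS ratio was near 1, at log2 0.01 (-0.31 to 0.34). Rrm2 was 88.5-fold lower with LPS in wild-type and 19.3-fold lower in deficient cells, on 13 and 39 counts with LPS. Rfc4 rests on 11 and 33 counts with LPS, and Tk1 and Rfc4 share exonic bases with another gene. The 3 genes whose interval lay below 1 were Prim1 at -0.75 (-1.46 to -0.04), Gmnn at -0.49 (-0.81 to -0.17) and Gins2 at -0.35 (-0.53 to -0.17). Prim1 was 2.71-fold lower with LPS in wild-type and 4.59-fold lower in deficient cells.

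Since the series set out to find genes lowered by miR-7, sites of this microRNA were looked for in the 44 genes. The mature strands below, from RefSeq's table on GRCm38.p6, share 1 seed (bases 2 to 8, in capitals), which pairs with target RNA. The first is made from Mir7-2, at 78888295 to 78888317 on chromosome 7, and Mir7-1, at 58392841 to 58392863 on chromosome 13, and the second from Mir7b, at 56243017 to 56243040 on chromosome 17.
mmu-miR-7a-5p: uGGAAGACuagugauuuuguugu
mmu-miR-7b-5p: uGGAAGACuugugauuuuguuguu

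In the longest annotated 3′ UTR (GENCODE M21), 10 of the 44 genes had at least 1 seed site of 7 or 8 bases (22.7%), beside 26.4% of 11289 tested genes with a UTR. A site of 7 bases matched the whole seed, or the seed without its last base followed by an A. A full site of 8 bases matched the whole seed followed by an A. The median UTR of the 44 was 547 bases long, against 1187 over all. The 10 were Chaf1a, Chek1, Gins2, Gins3, Mcm6, Pcna, Rfc2, Rfc5, Tyms and Uhrf1. A full site of 8 bases stood in 1, Rfc5 (2.27%), beside 4.23% of all. Shown are the site of Rfc5, at chr5:117379527-117379534 on the minus strand, that of Mcm6, at chr1:128332393-128332399 on the minus strand, and that of Pcna, at chr2:132249207-132249213 on the minus strand, with the site in capitals. Mcm6 and Pcna were picked after their values were seen, as well counted genes with a low unstimulated ratio. The sites of these 2 genes match the seed without its last base, followed by an A.
Rfc5: gttgcgtcctGTCTTCCAactctaaa
Mcm6: ctggggctgaTCTTCCAgaggtcct
Pcna: ttttgttctcTCTTCCAtcgtggag

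Rfc5 had unstimulated values of 67.0 and 64.1 CPM in wild-type and deficient cells, a log2 ratio of -0.06 (-0.14 to 0.01), and with LPS 28.3 and 32.4 CPM, a ratio of 0.19 (0.07 to 0.32). Of the 10 genes with a site, 10 had an unstimulated ratio below 1, as had all of the 44 but Fen1. With LPS 4 were below 1 (Chaf1a, Gins2, Mcm6 and Pcna) and 6 above (Chek1, Gins3, Rfc2, Rfc5, Tyms and Uhrf1). Pcna, chosen for its low unstimulated ratio of -0.58 (-0.62 to -0.55), had a ratio of -0.27 (-0.32 to -0.21) with LPS. Whether miR-7 had a part in any of these values was not tested. Mature miR-7 carries no poly(A) tail, and its level was not measured in these libraries.

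Replication genes outside the 44, a list also chosen with earlier results of these data known, were less uniform. Of 44 others tested, 15 fell, 4 rose and 25 did not pass, with a median log2 of -0.26. Ticrr, which recruits Cdc45 to origins, stood at 4.36, 0.362, 2.68 and 0.107 CPM and fell by 4.01 on the log2 scale. Top2a, the topoisomerase of dividing cells, stood at 44.3, 5.49, 34.8 and 2.27 CPM and fell by 3.46. Top1, the topoisomerase that also serves transcription, rose, at 96.4, 198, 122 and 214 CPM. Dnmt1, the methyltransferase that UHRF1 brings to the fork, did not pass, at 167, 132, 134 and 128 CPM (log2 -0.20 ± 0.19, adjusted p 0.445 by edgeR), whereas Uhrf1 fell. Of the origin complex subunits outside the 44, Orc2, Orc3, Orc4 and Orc5 did not pass.

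Of 17 other nucleotide genes, 11 fell, 2 rose and 4 did not pass, with a median log2 of -0.88. The 2 that rose act on deoxynucleosides and deoxynucleotides outside new synthesis. Dck, the salvage kinase, stood at 29.8, 207, 22.1 and 162 CPM (log2 2.84 ± 0.19, adjusted p 0.000266 by edgeR). Samhd1, which hydrolyses deoxynucleotides, stood at 368, 1374, 368 and 1161 CPM (log2 1.78 ± 0.21, adjusted p 0.00153 by edgeR). Ctps, which makes CTP, fell, at 7.23, 1.09, 5.28 and 1.79 CPM. In both genotypes, then, LPS libraries were lower in Rrm2 and Rrm1, which make deoxynucleotides, and higher in Samhd1, which breaks them down.

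Among 22 genes for E2F factors, pocket proteins and S-phase cyclins, 7 fell (E2f2, E2f7, E2f8, Rbl2, Ccna2, Cdk2 and Mybl2), 2 rose (E2f5 and Rbl1) and 13 did not pass, with a median log2 of -0.61. Ccna2, the S-phase cyclin A, stood at 15.8, 0.784, 12.7 and 1.34 CPM and fell by 3.76 on the log2 scale. E2f7, a repressor E2F, had 3.36, 0.241, 1.25 and 0 CPM and fell. Rb1, the retinoblastoma protein gene, did not pass, at 56.7, 50.1, 88.8 and 41.7 CPM. Rbl2, for the pocket protein p130 of resting cells, fell at 54.0, 24.9, 50.0 and 34.5 CPM. Of 11 repair and translesion polymerases tested, 0 fell, 1 rose and 10 did not pass. Polb, the base excision repair polymerase, was the 1 that rose, at 13.2, 27.5, 16.0 and 26.8 CPM. In mitosis, Cdk1, at 14.3, 4.71, 12.3 and 4.46 CPM, and Ccnb1, for cyclin B1, at 8.96, 0.694, 9.35 and 1.55 CPM, fell. Mki67 and Tpx2, also known from dividing cells, rose, at 65.5, 176, 69.8 and 200 CPM and at 16.6, 42.6, 18.7 and 34.6 CPM. The proliferation genes of these libraries thus did not all move in the direction of the 44.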

How the data were processed

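The authors deposited raw gene counts, 1 file for each of the 4 libraries, with no normalization, as whole numbers. Per the series design text, poly(A) RNA was sequenced on a HiSeq 2000, Casava 1.8.2 and Cutadapt prepared the reads, TopHat 2.0.13 with Bowtie2 aligned them and Partek gave the exons. The submitters' processing notes name HTSeq and the build mm8. Strand setting and treatment of reads with several positions are not stated, so overlapping or antisense genes cannot be told apart. Of the identifiers, 99.7% matched GENCODE M21 (GRCm38) without version, and symbols and coordinates come from there.

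Genes with CPM of at least 1 in at least 2 libraries were fitted with edgeR 4.0.16 (R 4.3.3), using TMM factors of 1.15, 0.846, 1.16 and 0.89, a model with additive genotype and LPS terms and 1 residual degree of freedom, and Benjamini-Hochberg adjustment over all 12730 genes. Standard errors are the fitted log2 change divided by the root of its F statistic. The scripts were checked on simulated counts. Library pairs were compared by log2 ratios of scaled counts with exact Clopper-Pearson 95% intervals, and ratios of ratios with normal intervals after adding 0.5 counts. Intervals cover counting error only, since 1 library stands against 1. Reads without molecular identifiers are not independent molecules, so the intervals can be too narrow even for counting error. The genes and lists were chosen with earlier results of these data known. Every gene of the 44 is named with its CPM. SE and adjusted p are given for the largest and smallest change of each role, and from other lists up to 4 genes, 2 by CPM and 2 by change, are drawn on. Alternatives were DESeq2 1.42.0 size factors and Wald test, total counts, other filters and fold limits, LPS alone, leaving out each library, shorter promoter words and full seed sites. Genes sharing exonic bases were left out after the data were seen.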

Additional observations from a re-analysis of the deposited data

Results flagged for a closer look

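Gins3, a subunit of the GINS part of the helicase, had LPS ratios of opposite sign in the 2 genotypes, each with a 95% interval for counting error that leaves out equality. The log2 ratio of LPS over unstimulated was -0.59 (-0.97 to -0.22) in wild-type and 0.51 (0.12 to 0.91) in deficient cells, a difference of 1.09 (0.57 to 1.62). The values rest on 189, 89, 95 and 129 counts. With 1 library per group this difference was not tested, and its cause was not tested.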

How the results depend on the processing

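Of the 29 genes that fell, 28 remained with DESeq2 size factors, 26 without a filter, 26 with LPS alone and 29 with DESeq2's Wald test, and total counts kept the 29 and added 5. With a mean CPM of at least 10, only 22 of the 44 were tested, and 18 fell, where 1475 of all 8249 genes tested fell. The 18 were 17 of the 29 and Chaf1b. Among genes sharing no exonic bases, 17 fell. Leaving out each library in turn gave 12 to 21 falling genes, a median log2 of -1.50 to -0.97 and 1676, 2698, 1978 and 3208 genes called for LPS among all tested, against 4372. The median log2 was -1.73 with total counts. Genotype calls over all genes numbered 70, but 44 with DESeq2 size factors, 30 without a filter and 228 with DESeq2's Wald test. The cause of these shifts was not tested, apart from the fewer genes or libraries used. In the deficient pair, 12 genes were lower beyond 3-fold in place of 20 beyond 2-fold. At 1.5-fold, 11 genes differed by genotype unstimulated and 2 with LPS, in place of 0 and 0. In LPS ratio 8 differed at 1.5-fold in place of 3, while at 3-fold 1 did. Shares over all genes were taken at 2-fold alone, so these counts at 1.5-fold and 3-fold cannot be set against all genes. E2F words of 7 letters matched 24 genes in place of 15, and full miR-7 sites of 8 bases 1 in place of 10. Of 154 alternative values over 22 named genes, 125 kept direction and side of the threshold, 16 lost it, 4 gained it and 9 changed sign. The sign changes were Mcm6 at 0.092 and Rfc3 at 0.099 without the wild-type unstimulated library, Rfc3 at 0.041, Gins4 at -0.12 and Gins2 at -0.15 without the wild-type LPS library, Gins4 at -0.24 without the deficient unstimulated library, and Gins4 at -0.39, Pola2 at -0.10 and Gins2 at -0.30 with total counts. The genotype term already pairs the LPS and unstimulated libraries of a genotype, and without it 27 genes fell. The labels give no replicate numbers for any other pairing. Depth limits Clspn, Cdc6, Orc1, Rfc4 and Rrm2, among others, whose LPS libraries hold few counts. The wild-type and deficient LPS counts were also low for Pole (17 and 37), Dut (26 and 42) and Pole2 (29 and 49). The same holds for Cdc45 (36 and 36) and Chek1 (29 and 41).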
